A study of Rattus norvegicus with 42 samples.

Results

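Blood gene expression after tissue plasminogen activator (tPA) was compared over both kinds of middle cerebral artery occlusion (MCAO), the suture model of ischemic stroke, pooled. Members are the 24 of 42 rats in the series that had MCAO: 12 given tPA and 12 not, in 4 of the 7 groups of 6. Reperfused-MCAO rats had the artery occluded for 2 h and then reopened, and permanent-MCAO rats kept the suture until blood was taken. The groups are reperfused-MCAO without tPA, reperfused-MCAO with tPA, permanent-MCAO without tPA and permanent-MCAO with tPA. All were male Sprague-Dawley rats of 280 to 350 g, on average 2.4 months old, operated under isoflurane. Recombinant human tPA was injected into the peritoneum at 3.3 mg/kg, 3 h after the occlusion began, so in reperfused-MCAO the artery was already open, and whole blood was taken at 24 h by cardiac puncture. There was no sham-operated group in the series, and the route differs from the intravenous infusion used in patients.

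tPA is a serine protease that cuts plasminogen into plasmin, which dissolves fibrin, and plasminogen activator inhibitors and alpha-2-antiplasmin hold the system in check. Plasmin and tPA also act on matrix proteases, on complement and on receptors of leukocytes, and after stroke the circulating neutrophils and monocytes are activated and enter the injured brain. Whole blood RNA comes from all blood cells together, red cell precursors and platelets included, so fewer cells of a type and less RNA per cell cannot be told apart in these data.

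Levels are log2 signals made by GC-RMA, on which a difference of 1 is a doubling, and a difference is the tPA-treated minus the untreated rats with the kind of MCAO as a block. A probe set, the array's group of probes for 1 transcript, is called where p is at most 0.05 and the fold at least 1.2, by limma. Of 31042 probe sets 810 were called (2.61%), 272 higher with tPA and 538 lower. Without untreated reperfused-MCAO rat 6 the higher count was 410. After quantile scaling of the arrays 822 were called, 387 higher and 435 lower, and the lower share moved from 66.4% to 52.9%. In all 1371 probe sets had p at most 0.05, against 1552 that would be reached with no effect of tPA. After Benjamini-Hochberg adjustment in limma 0 remained at 0.05. An ordinary analysis of variance of the 24 MCAO arrays, fitted to each probe set alone, also left 0. It had tPA and kind of MCAO as terms, so it was not the study's own model of all 42 rats. The smallest adjusted p in limma was 0.586, so each call below is a nominal one. The p given beside a single gene is from an exact permutation test over the divisions of rats within kinds, two-sided and unadjusted. Adjusted p was 0.855 for every gene given a pooled difference below as called, apart from Glul and Ssna1 at 0.586. In 0 probe sets (0.0%) did treated and untreated rats lie apart without overlap in both kinds. The share without overlap in a single kind was not counted, so where that is given below it is description only.

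Among the treated permanent-MCAO rats 2 stood apart. Rat 1 lay at 86.7 on the first principal component of the 24 arrays, where the next rat was at 34.5, and rat 4 lay at -59.9 on the second. Rat 4 also had the lowest hybridization control signal of the 24 arrays (11.4 log2, against a highest of 12.4). Over all treated rats that signal was 12.04 ± 0.28 and over untreated rats 12.05 ± 0.25 (SD, n = 12 each). Without both rats 570 probe sets were called, of which 408 were among the 810. Calls that were lost without them are named with each group of genes, and the part of these rats in the lost calls was not tested further.

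Of the 27 gene lists the neutrophil list had the largest share of calls and the median farthest from 0. It holds Slpi, Mmp9 and Il1r2, which the study named as regulated by tPA in these samples. Its share of calls is therefore no independent evidence. Of its 28 genes 18 were measured, and 9 of the 18 were called lower and 0 higher with tPA, where 2.46% of all 14217 genes were called lower and 0.943% higher. Those shares are the background for every list count below, and few or no calls in a short list say little. The median difference of the list was -0.43, against 0.01 for all genes, with 17 of 18 genes negative in the pooled comparison and 15 negative in both kinds. Within reperfused-MCAO the median was -0.47 and within permanent-MCAO -0.41. The mean level of the list ran from 7.67 to 9.87 in untreated rats, with a median of 8.47, and from 6.89 to 8.94 in treated rats, with a median of 7.96, so the groups overlapped widely. Leaving out both rats that stood apart kept Slpi, Mmp9, Ncf4 and Il1r2 called and left a median of -0.34, and the same 4 genes were left when permanent-MCAO tPA rat 4 alone or untreated reperfused-MCAO rat 1 alone was removed. The count was also 4 without untreated permanent-MCAO rat 6, and 5 without untreated reperfused-MCAO rat 3 or treated reperfused-MCAO rat 1. With the hybridization control level as a covariate the same 9 genes were called.

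Slpi, secretory leukocyte peptidase inhibitor, which protects tissue from neutrophil elastase, had the smallest p of the list. In reperfused-MCAO its lowest, median and highest levels were 12.06, 12.83 and 13.88 without tPA and 11.06, 11.75 and 12.67 with tPA. In permanent-MCAO they were 11.97, 12.30 and 13.01 without tPA and 11.09, 11.42 and 12.51 with tPA. The ranges overlapped in each kind, and 11 of 12 treated rats lay below the mean of the untreated rats of their kind. The pooled difference was -0.91 ± 0.22 (standard error, 1.88-fold lower), and an exact permutation test over the 853776 divisions of the rats within kinds gave p = 0.000719, two-sided.

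Mmp9, the gelatinase that neutrophils carry in granules and that degrades the basement membrane of brain vessels, showed the largest difference of the list. Untreated reperfused-MCAO rats ran from 6.48 to 9.97 with a median of 7.41, and treated ones from 4.77 to 7.56 with a median of 6.37. Untreated permanent-MCAO rats ran from 6.24 to 8.63 with a median of 7.63, and treated ones from 4.75 to 7.70 with a median of 6.87. In each kind the lowest treated rat lay below every untreated rat, and the ranges overlapped above that. The difference was -1.23 ± 0.46 (2.34-fold lower, exact permutation p = 0.0155), with 9 of 12 treated rats below their untreated mean. A second, dim Mmp9 probe set was called as well, at -0.86.

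Il1r2, the decoy receptor that binds interleukin 1 without signaling, was lower, at -0.91 ± 0.37 (exact p = 0.0243). Its levels in reperfused-MCAO had medians of 10.42 without and 9.14 with tPA, and in permanent-MCAO of 9.87 and 9.60. Treated permanent-MCAO rats ranged from 6.97 to 10.32, reaching below every untreated rat and nearly to the highest of their kind (10.60). Ncf4, a subunit of the oxidase that makes superoxide, was lower, at -0.45 ± 0.16 (exact p = 0.0119), with untreated medians of 10.65 in reperfused-MCAO and 10.35 in permanent-MCAO and treated medians of 10.24 and 9.85.

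The other 5 called genes did not stay called without the rats that stood apart. S100a8 and S100a9, which form the calcium-binding protein calprotectin, were among the brightest genes and differed by -0.35 ± 0.15 and -0.40 ± 0.18. Cxcr2, the receptor for neutrophil-attracting chemokines, differed by -0.66 ± 0.29. Pglyrp1, a peptidoglycan-binding granule protein, differed by -0.72 ± 0.31, and Alox5ap, which helps 5-lipoxygenase start leukotriene synthesis, by -0.55 ± 0.24. Without the pair of rats these differences were -0.28 for S100a8, -0.33 for S100a9, -0.50 for Cxcr2, -0.56 for Pglyrp1 and -0.47 for Alox5ap, none called. In each of these 5 genes untreated reperfused-MCAO rat 1 was the highest of the 24 rats.

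Of the 9 uncalled genes of the list, Csf3r, the receptor for granulocyte colony-stimulating factor, differed by -0.35 ± 0.24, and Mmp8, the neutrophil collagenase, by -0.58 ± 0.41. Cybb, the catalytic oxidase subunit that monocytes also express, differed by -0.03 ± 0.13. Lcn2, which binds bacterial iron carriers, was the 1 positive gene, at 0.20 ± 0.59. Padi4, Prok2, Camp, Ncf1 and Hp lay between -0.48 and -0.06 and were not called.

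**Figure D1:**
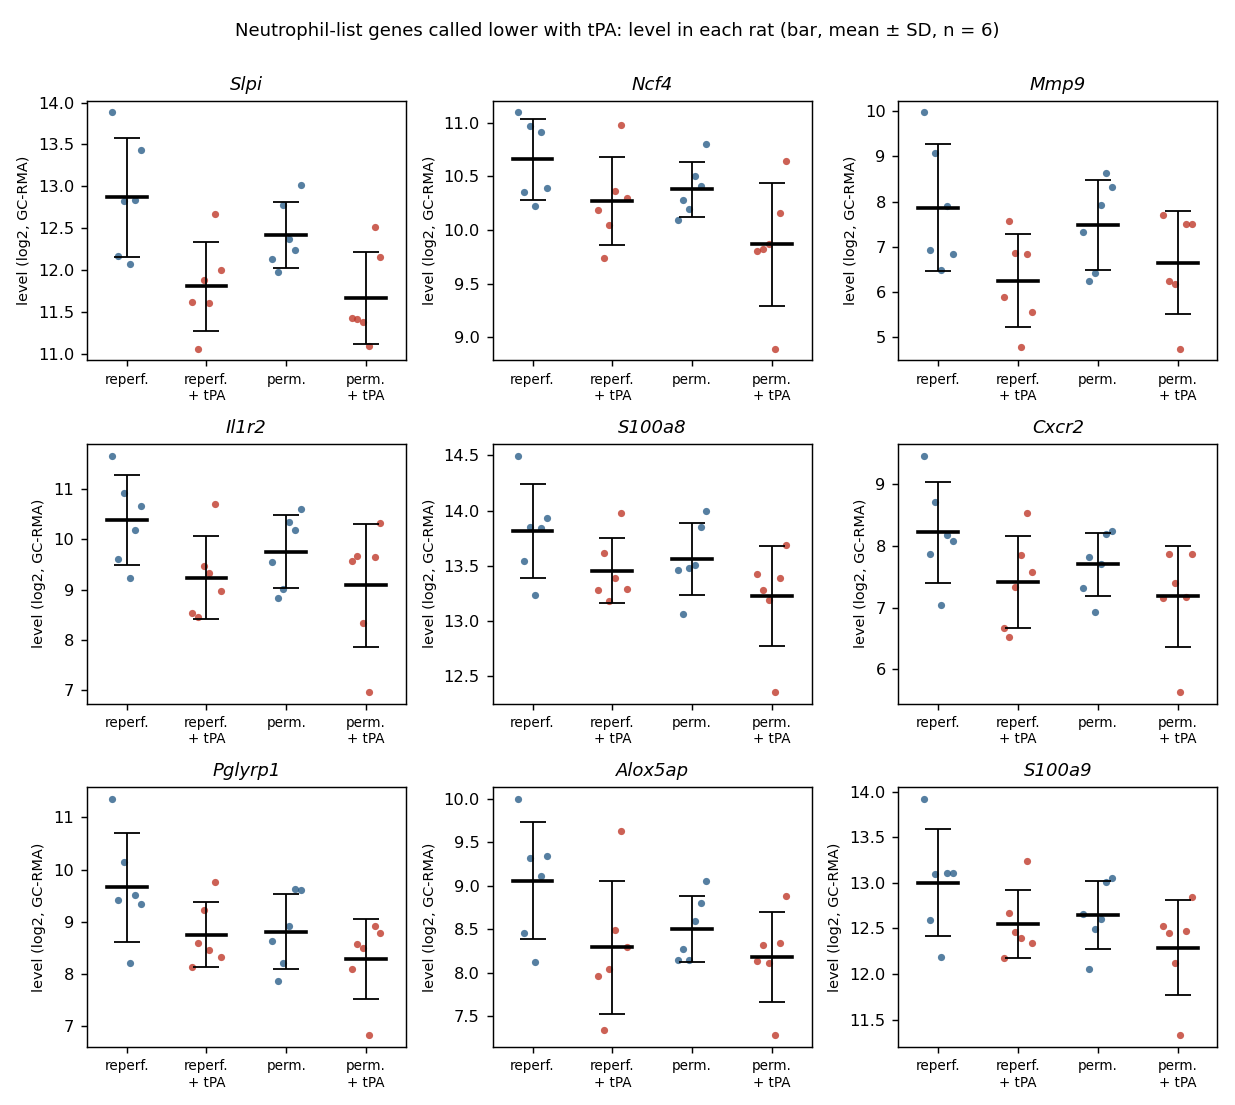
Level (log2, GC-RMA) of the 9 called neutrophil-list genes in each of the 24 rats, with red points for tPA, blue for no tPA, and bars for the mean ± SD of 6 rats. In every panel the treated mean lies below the untreated mean of the same kind of MCAO and the points overlap, as for Slpi, from 11.06 to 12.67 with tPA and 12.06 to 13.88 without in reperfused-MCAO.

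RefSeq promoters were found for 3 of the 9 called neutrophil genes, and the 250 bases before each start are shown. The letters searched belong to factors that drive neutrophil genes, and control of these genes by them was not tested. All 3 calls were lost without the rats that stood apart. Capitals mark GAGGAA, the core letters of PU.1 sites, and TTNNGNAA, a loose C/EBP pattern, on either strand, and no match overlaps another motif here. In build GRCr8 they lie at chr2:178490623-178490872 on the minus strand for S100a9, chr1:87659613-87659862 on the plus strand for Pglyrp1 and chr9:83178395-83178644 on the plus strand for Cxcr2.
S100a9: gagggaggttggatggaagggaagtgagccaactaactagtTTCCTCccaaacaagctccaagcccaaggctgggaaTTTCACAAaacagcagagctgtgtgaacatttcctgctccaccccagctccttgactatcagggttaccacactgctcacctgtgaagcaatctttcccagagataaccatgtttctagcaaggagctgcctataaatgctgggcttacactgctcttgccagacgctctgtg
Pglyrp1: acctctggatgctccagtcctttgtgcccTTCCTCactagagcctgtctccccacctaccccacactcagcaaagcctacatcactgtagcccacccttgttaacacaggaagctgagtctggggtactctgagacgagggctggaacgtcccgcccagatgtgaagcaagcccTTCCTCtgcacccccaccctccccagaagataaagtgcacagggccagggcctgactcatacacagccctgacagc
Cxcr2: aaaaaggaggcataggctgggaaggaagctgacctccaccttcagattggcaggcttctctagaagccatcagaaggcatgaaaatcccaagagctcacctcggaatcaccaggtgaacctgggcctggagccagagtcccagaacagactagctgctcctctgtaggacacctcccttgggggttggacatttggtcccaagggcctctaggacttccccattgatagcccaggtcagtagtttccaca
Read 5′ to 3′ on the gene's strand, the S100a9 window holds 1 PU.1 core and 1 C/EBP pattern, that of Pglyrp1 2 PU.1 cores and no C/EBP pattern, and that of Cxcr2 neither. Windows of this length hold the PU.1 core in 23.2% and the C/EBP pattern in 36.8% of 27457 RefSeq rat promoters, and in 23.1% and 28.8% of the 11734 promoters of genes on the array. Of the 7 uncalled neutrophil genes with a promoter, 2 hold the PU.1 core and 4 the C/EBP pattern. These are matches of letters, and binding was not measured.

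Some receptors of myeloid cells that sense microbes and antibodies were also called lower with tPA. Tlr2, the receptor for bacterial lipoproteins, ran from 8.80 to 11.004 (median 9.71) in untreated and 8.52 to 9.71 (median 8.91) in treated reperfused-MCAO rats. In permanent-MCAO it ran from 8.90 to 9.74 (median 9.41) without and 8.16 to 9.26 (median 8.77) with tPA. All 12 treated rats lay below the untreated mean of their kind, though the ranges overlapped. The difference was -0.67 ± 0.21 (exact permutation p = 0.00347), and it stayed called without the rats that stood apart. Tlr1, which pairs with Tlr2, differed by -0.48 ± 0.19 (exact p = 0.0145), with 11 of 12 treated rats on that side. These were the 2 of 17 Toll-like receptor genes called, both lower, in a list with a median of -0.06.

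Fcgr2b, the inhibitory receptor for antibody Fc, had medians of 9.43 untreated and 8.96 treated for reperfused-MCAO, and 9.01 and 8.47 for permanent-MCAO. Its difference of -0.56 ± 0.14 (exact permutation p = 0.00109) was of like size in reperfused-MCAO (-0.57) and permanent-MCAO (-0.55). Orai1, the pore of the store-operated calcium channel of immune cells, differed by -0.44 ± 0.14 (exact p = 0.0059) with all 12 treated rats lower than the untreated mean of their kind. Id1, an inhibitor of helix-loop-helix transcription factors, differed by -0.68 ± 0.29 (exact p = 0.0334), and Icam2, a ligand for leukocyte integrins on platelets and endothelium, by -0.34 ± 0.14 (exact p = 0.0187). Without the 2 rats Icam2, the 1 of 18 leukocyte adhesion genes called, and Id1 were no longer called. Csf1, the growth factor of monocytes, had a mean of 3.97, close to the background of the array, and differed by -0.48 ± 0.19 (exact p = 0.0234), by -0.16 in reperfused-MCAO and -0.79 in permanent-MCAO.

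Of 26 measured genes that the study discusses, 10 were called lower and 0 higher (median -0.24), where 2.46% and 0.943% of all genes were. The study chose them on these samples, so this count is no independent evidence of a direction. They are Slpi, Fcgr2b, Tlr2, Orai1, Mmp9, Csf1, Icam2, Il1r2, Id1 and Serpinb6a, a protease inhibitor inside cells and granules. In the cytokine and interleukin 1 list 3 of 25 genes were called, all lower: Il1r2, Csf1 and Tnfrsf1a (-0.37 ± 0.15), the main receptor for tumor necrosis factor. Tnfrsf1a was not called without the rats that stood apart.

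Monocyte genes were called lower in 4 of 18, with a list median of -0.08. In the pooled comparison 12 of the 18 were negative and 6 positive, and 8 were negative in both kinds. They were Aif1, a calcium-binding protein of macrophages (-0.32 ± 0.12), Fcgr1a, the high-affinity antibody receptor (-0.36 ± 0.14), Lgals3, the lectin galectin-3 (-0.41 ± 0.16), and Cd68, a lysosomal glycoprotein (-0.28 ± 0.13). Cd68 had an exact p of 0.0502, above the threshold that the limma p met. Without the 2 rats all 4 calls were lost, the differences then lying between -0.33 and -0.22. Mean levels of the list ran from 7.90 to 8.35 in untreated and from 7.62 to 8.38 in treated rats.

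Lists of other blood cells held few calls. In the T cell list 1 of 24 genes was called, Il7r, the interleukin 7 receptor of naive and memory cells, higher by 0.42 ± 0.19 (exact p = 0.0416), and the list median was 0.07. A second Il7r probe set differed by -0.11 ± 0.22, not called. In the erythroid and reticulocyte list 1 of 30 was called, Cpox, an enzyme of heme synthesis, higher by 0.46 ± 0.19 (exact p = 0.024), and that call was lost without the 2 rats. No gene was called of 14 B cell, 18 NK and cytotoxic, 21 platelet, 18 basophil, mast cell and eosinophil, 11 endothelial or 9 MHC class II genes. Only 7 of the basophil, mast cell and eosinophil genes and 4 of the endothelial genes had a mean of at least log2 4, so most were dim. All 9 MHC class II genes were negative, with a median of -0.21. B cell genes had a median of 0.05 in reperfused-MCAO and -0.39 in permanent-MCAO, and platelet genes of -0.14 and 0.20. Averaged over the 12 rats of each arm, the T cell level was 8.67 ± 0.23 without and 8.75 ± 0.43 with tPA (SD). The platelet level was 9.46 ± 0.38 without and 9.47 ± 0.43 with tPA, and the erythroid level 10.57 ± 0.36 and 10.48 ± 0.37.

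**Figure D2:**
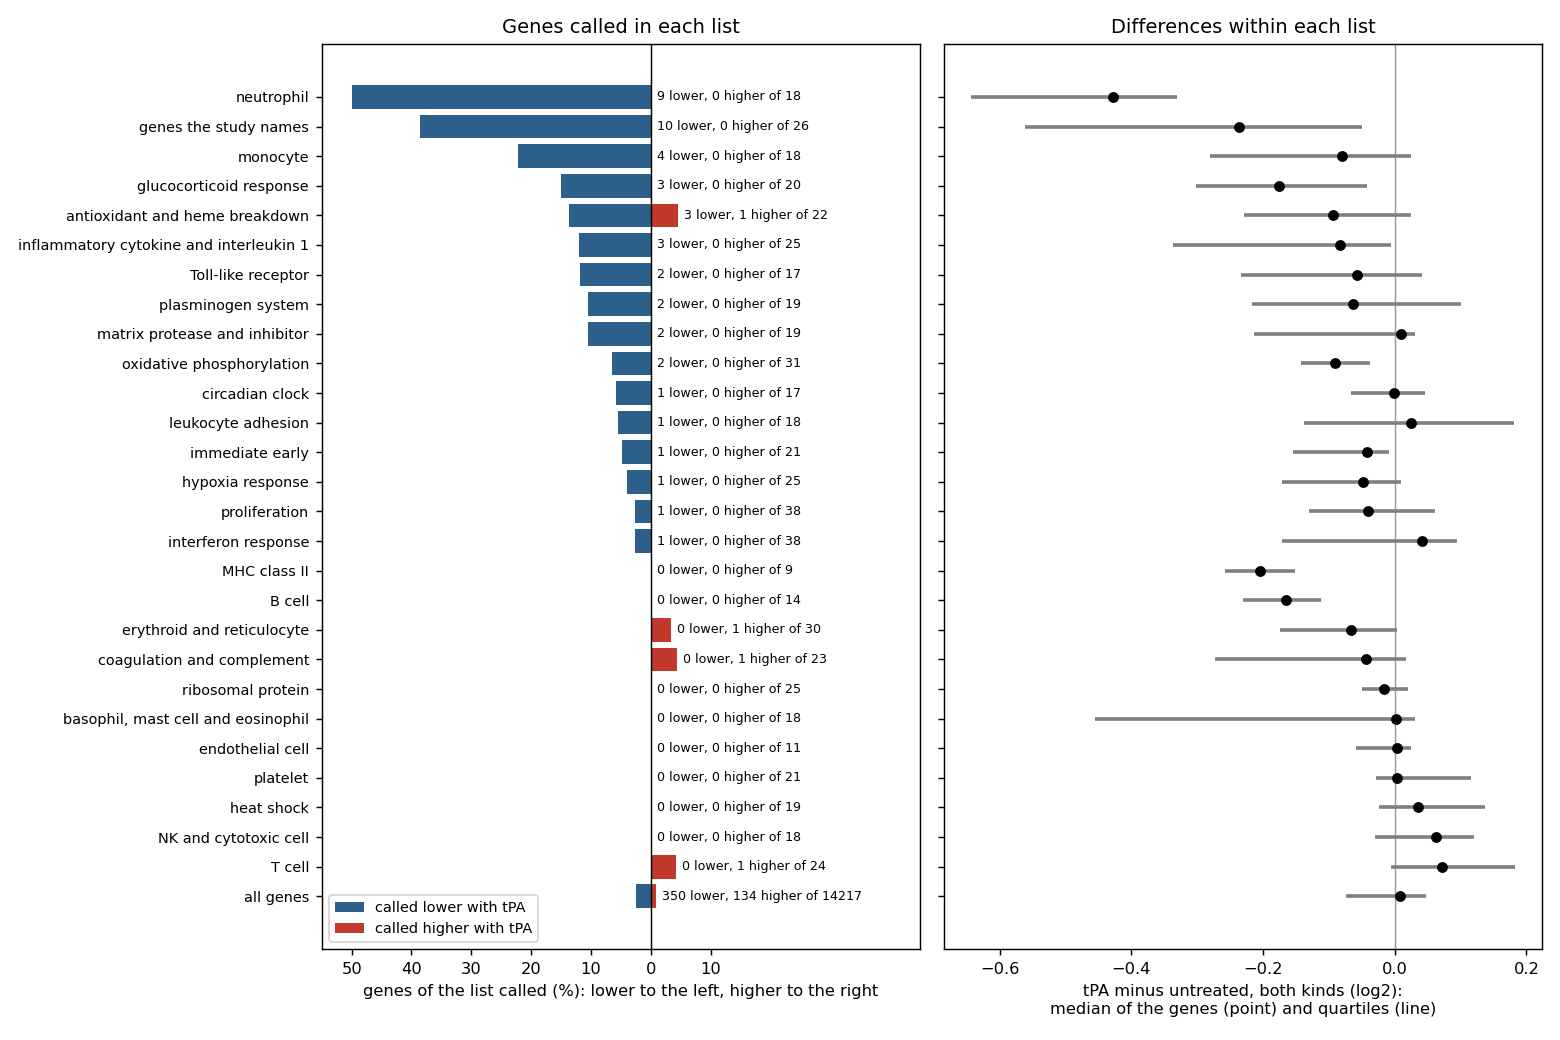
Left, share of the measured genes of each list called lower (blue, to the left) or higher (red, to the right) with tPA over both kinds of MCAO, with counts. Right, median of the log2 differences (point) and their quartiles (line). The neutrophil list stands at 9 of 18 lower and a median of -0.43, and all genes at 350 lower and 134 higher of 14217.

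Of 19 measured genes of the system that tPA acts in, 2 were called, both lower, and 9 had a mean of at least log2 4. Serpinf2, alpha-2-antiplasmin, the main inhibitor of plasmin, had a mean of 4.13 and differed by -0.40 ± 0.15 (exact p = 0.0154), its medians being 4.28 untreated and 3.87 treated for reperfused-MCAO, and 4.34 and 3.92 for permanent-MCAO. Lrp1, the receptor that clears tPA from the circulation, differed by -0.40 ± 0.17 (exact p = 0.0288), with medians of 7.94 and 7.60, then 8.10 and 7.58. Plat, which encodes rat tPA, had a mean of 3.14 and differed by 0.14 ± 0.12, and the array does not see the injected human protein. Plg, the plasminogen gene made by liver, and Plau, urokinase, were at means of 2.45 and 2.61. Anxa2 and S100a10, which together bind tPA and plasminogen on cells, were bright and differed by -0.17 ± 0.11 and -0.10 ± 0.12, not called.

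The matrix protease list held 2 calls of 19, Mmp9 and Timp2, an inhibitor of matrix metalloproteinases (-0.37 ± 0.15), the latter lost without the rats that stood apart. Of 23 coagulation and complement genes 1 was called, Pros1, the anticoagulant protein S, higher by 0.38 ± 0.16. That call was lost without the rats that stood apart. Pros1 had a mean of 3.44, close to the background of the array, and differed by 0.19 in reperfused-MCAO and 0.56 in permanent-MCAO. In the antioxidant list 3 of 22 genes were called lower and 1 higher. Sod1, which removes superoxide in the cytosol, had medians of 11.06 untreated and 10.76 treated for reperfused-MCAO, and 11.18 and 10.77 for permanent-MCAO, and differed by -0.34 ± 0.09 (exact p = 0.00112). Without the 2 rats its difference of -0.26 was under the fold threshold. Prdx5 and Nqo1, which reduce peroxides and quinones, differed by -0.33 ± 0.14 and -0.45 ± 0.22, both lost without the pair of rats, and the exact p of Nqo1 was 0.0556. Gclc, which makes the first step of glutathione synthesis, was higher by 0.51 ± 0.16 (exact p = 0.00693).

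Glucocorticoid-response genes were called lower in 3 of 20, with a median of -0.18: Il1r2, Per1 (-0.36 ± 0.17) and Dusp1 (-0.37 ± 0.18), a phosphatase that turns off stress kinases. Dusp1, also the 1 of 21 immediate early genes called, had an exact p of 0.0557 and was lost without the rats that stood apart. Per1 is also a clock gene, the 1 of 17 clock genes called. Its mean was 4.12, and it differed by -0.64 in reperfused-MCAO and -0.09 in permanent-MCAO. Egln1, an oxygen-sensing hydroxylase that marks hypoxia-inducible factor for removal, was the 1 of 25 hypoxia genes called. It was lower, at -0.36 ± 0.11 (exact p = 0.00352), by -0.37 in reperfused-MCAO and -0.36 in permanent-MCAO, in 12 of 12 treated rats. Oxidative phosphorylation held 2 lower of 31, Ndufv1 (-0.27 ± 0.11), lost without the 2 rats, and Ndufa2 (-0.27 ± 0.12), and proliferation 1 lower of 38, Ube2c (-0.92 ± 0.38). No gene was called of 25 ribosomal protein or 19 heat shock genes.

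Among named genes of all functions, the smallest p belonged to Glul, glutamine synthetase. Its levels in reperfused-MCAO were 11.76, 11.98 and 12.24 (lowest, median, highest) without tPA and 12.19, 12.30 and 12.50 with tPA. In permanent-MCAO they were 11.73, 12.11 and 12.42 without and 12.30, 12.38 and 12.52 with tPA. All 12 treated rats lay above the untreated mean of their kind, and the ranges just overlapped. The difference was 0.32 ± 0.06 (1.25-fold higher, exact permutation p = 6.09e-05). The other probe sets of Glul, both brighter, differed by -0.01 ± 0.05 and 0.00 ± 0.08, so this holds for 1 probe set of 3.

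Ssna1, a small protein of centrosomes and microtubules, was lower, at -0.34 ± 0.07 (exact permutation p = 0.000136) in 12 of 12 treated rats. Tmem268, a membrane protein of little known function, was lower, at -0.68 ± 0.15 (exact p = 0.000166), and its second probe set by -0.90. Slc35c2, which acts in fucose transport into the Golgi, was lower, at -0.89 ± 0.22 (exact p = 0.000855), and Scnm1, a splicing factor, by -0.37 ± 0.09 (exact p = 0.00133).

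Fetub, a protease inhibitor of the fetuin family, was among the named genes both for the size of its difference and for its p. Its medians were 8.28 untreated and 7.67 treated for reperfused-MCAO, and 7.93 and 6.54 for permanent-MCAO. In permanent-MCAO untreated rats ran from 7.42 to 8.38 and treated rats from 5.45 to 7.39, without overlap. The pooled difference was -1.26 ± 0.31 (exact permutation p = 0.000696).

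Higher with tPA at small p were Setd5, a SET-domain chromatin protein (0.34 ± 0.08), Mmut, the mitochondrial methylmalonyl-CoA mutase (0.37 ± 0.09), Herc2, a ubiquitin ligase of DNA repair (0.45 ± 0.11), and Larp7, which holds the 7SK RNA complex (0.38 ± 0.11). Lpal2, a lipoprotein(a)-like gene, was higher by 1.60 ± 0.43 (3.03-fold, exact p = 0.00122). Its untreated medians were 4.75 in reperfused-MCAO and 3.61 in permanent-MCAO, and treated medians 5.78 and 5.67. The values of Setd5 and Mmut are from dimmer probe sets, and their brightest ones differed by 0.06 ± 0.10 and 0.21 ± 0.19, not called, the latter by -0.15 in permanent-MCAO. A second, dimmer probe set of Larp7 differed by -0.16 ± 0.14, not called. For Lpal2, Mmut and Herc2 all 12 treated rats lay above the untreated mean of their kind.

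Of called genes with a mean of at least log2 4, Snx8, a sorting nexin of endosomes, had the largest decrease, -1.67 ± 0.47 (3.19-fold, exact p = 0.00155), with its brighter probe set at -0.46. Pkia, an inhibitor of protein kinase A, was lower, at -1.50 ± 0.50, Car5b, a mitochondrial carbonic anhydrase, by -1.29 ± 0.42 (-0.83 ± 0.48, not called, on its brightest probe set), and Ggt1, which breaks down extracellular glutathione, by -1.26 ± 0.35. The largest increase, of Fbln1, a secreted matrix protein, was 1.95 ± 0.89 (exact p = 0.045), but levels ran from 2.88 to 8.97 without and from 3.00 to 9.20 with tPA, so that both arms covered nearly the same range. Bcl11b, a T cell transcription factor, was higher by 0.75 ± 0.29 on one probe set and 0.37 ± 0.20, not called, on its brightest. Klre1, a receptor of NK cells, was higher by 0.82 ± 0.30, and Mex3b, Lmo7, Tab3 and Klhl42 by 0.68 to 0.75. The last 4 calls were lost without the rats that stood apart. The brightest probe set of Tab3 differed by 0.29 ± 0.14, and a second one of Klhl42 by -0.47 ± 0.39, not called. LOC102546992 and LOC100912143, predicted genes, were lower, at -1.43 ± 0.47 and -1.39 ± 0.40.

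Whether tPA acted alike in both kinds was tested by the difference of its 2 effects, permanent-MCAO minus reperfused-MCAO. It called 571 probe sets (1.84%), 371 higher and 200 lower in permanent-MCAO, with 0 after adjustment (limma, smallest adjusted p 0.978). In all 782 had p at most 0.05, fewer than the 1552 that would be reached with no difference between kinds. Without both rats that stood apart 984 were called, 399 of them among the 571, and without treated permanent-MCAO rat 1 alone 1074. The count was 334 without dim probe sets, 1408 with array weights and 1240 with the hybridization control as covariate. Taken singly, 670 probe sets were called within reperfused-MCAO (2.16%) and 816 within permanent-MCAO (2.63%), and 36 were called in the same and 11 in opposite directions in both. Across the 13182 probe sets of at least log2 4 the differences in the 2 kinds had a correlation of 0.15 (no rats are shared, and probe sets are not independent). None of the 18 neutrophil genes was called for the difference between kinds, where 2.04% of all genes were, so this does not show alike effects. Their median for that difference was 0.195, and 4 were called lower within reperfused-MCAO and 2 within permanent-MCAO.

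**Figure D3:**
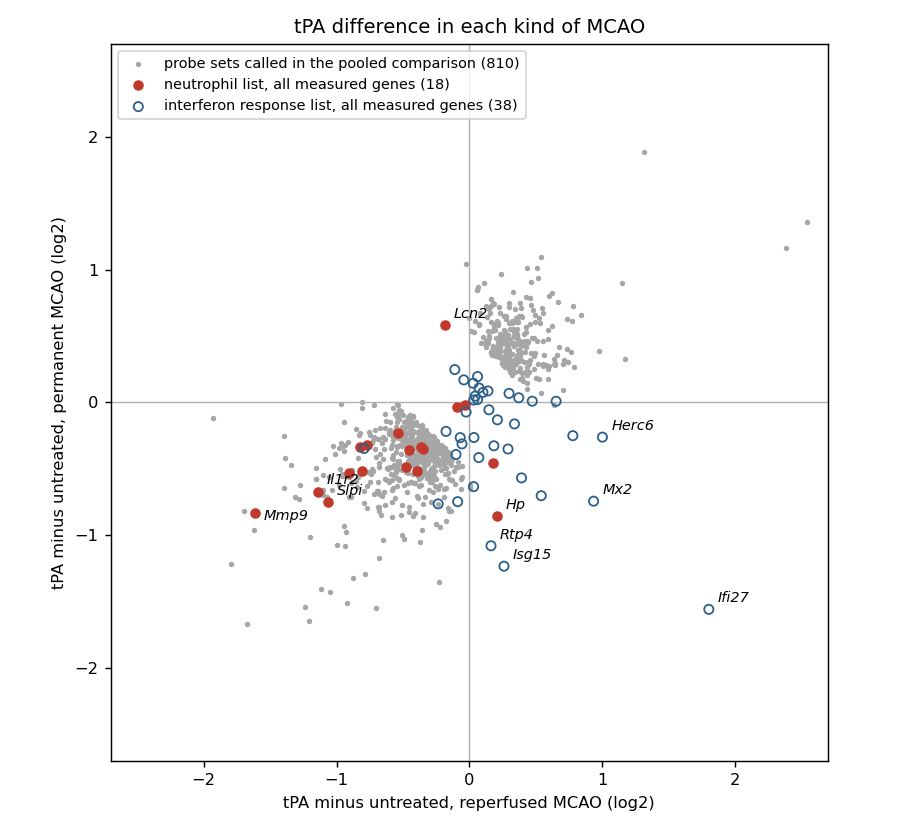
Log2 difference with tPA in reperfused-MCAO (horizontal) and permanent-MCAO (vertical) for the 810 called probe sets (grey), the 18 neutrophil genes (red) and the 38 interferon response genes (open blue). The pooled call places nearly all grey points where the 2 differences share their sign, the neutrophil genes lie mostly lower left, and Ifi27, Mx2 and Herc6 lie lower right.

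Of 38 interferon response genes 5 were called for the difference, all lower in permanent-MCAO, where 2.04% of all 14217 genes were called. The median tPA difference was 0.09 in reperfused-MCAO and -0.24 in permanent-MCAO. Herc6, a ligase that attaches the ubiquitin-like protein Isg15, ran from 5.75 to 6.69 without and 6.81 to 7.70 with tPA in reperfused-MCAO, without overlap, and from 5.74 to 7.36 and 5.41 to 6.61 in permanent-MCAO. Its tPA differences of 1.00 and -0.26 differed by -1.26 ± 0.37 (exact p = 0.0054). Exact p for such a difference came from tPA labels shuffled within each kind. It assumes no tPA effect in either kind, so it is not a test of equal effects alone. Mx2, an antiviral GTPase, had differences of 0.94 and -0.74 (exact p = 0.00289 for their difference), and Rtp4, a chaperone induced by interferon, of 0.16 and -1.08 (exact p = 0.0279). A second, dim Mx2 probe set had -0.86 and -0.13. Usp18, which removes Isg15 from proteins, had 0.54 and -0.70 (exact p = 0.0442), and Ifi27, a mitochondrial interferon-induced protein, 1.80 and -1.56 (exact p = 0.0486). Usp18 and Ifi27 were not called without the 2 rats. These 5 were picked out after their values were seen, and in the pooled comparison the list held 1 call, Oas1a, an RNA-sensing enzyme, at -0.50 ± 0.23, which was lost without the 2 rats.

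Outside that list the smallest p for the difference belonged to Pttg1, securin, which holds sister chromatids together until they part. In reperfused-MCAO it ran from 10.30 to 11.86 without and 12.13 to 12.67 with tPA, and in permanent-MCAO from 11.79 to 12.86 and 11.22 to 12.60. The differences of 1.05 and -0.42 lay -1.47 ± 0.36 apart (exact p = 0.000733). Ddx24, an RNA helicase, went the same way (0.39 and -0.38), and Cuedc2, a ubiquitin-binding protein, was level in reperfused-MCAO (0.01) and lower in permanent-MCAO (-0.63). Notch1, a receptor in cell fate decisions, went from -0.35 to 0.48, Letm1, a mitochondrial ion carrier, from -0.23 to 0.36, and Irs2, an adaptor of insulin signaling, from -0.59 to 0.37. All 6 stayed called without the rats that stood apart. For Letm1, Notch1 and Ddx24 these are the dimmer probe sets. The brightest differed by 0.01 and 0.03 for Letm1, by -0.24 and 0.09 for Notch1 and by 0.23 and -0.22 for Ddx24.

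Of the 26 measured genes the study discusses, 6 were called for the difference, where 2.04% of all genes were. The study chose them on these samples, some for a change in 1 kind, so this count too is no independent evidence. Serpinb6a was lower, at -1.93 in reperfused-MCAO and -0.12 in permanent-MCAO (exact p = 0.0345). Actn1, an actin crosslinker, had -0.51 and 0.30 (exact p = 0.000946), Xdh, which makes uric acid, -0.44 and 0.11 (exact p = 0.0229), and Itgb2, the common chain of leukocyte integrins, -0.26 and 0.23 (exact p = 0.0081). Col17a1, a dim collagen, had -0.12 and 0.30 (exact p = 0.0356). Jag1, a Notch ligand, went the other way, at 0.04 and -1.17 (exact p = 0.0491), and was lost without the 2 rats. Aif1 of the monocyte list was level in reperfused-MCAO (0.01) and lower in permanent-MCAO (-0.65, exact p = 0.0167 for the difference).

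**Figure D4:**
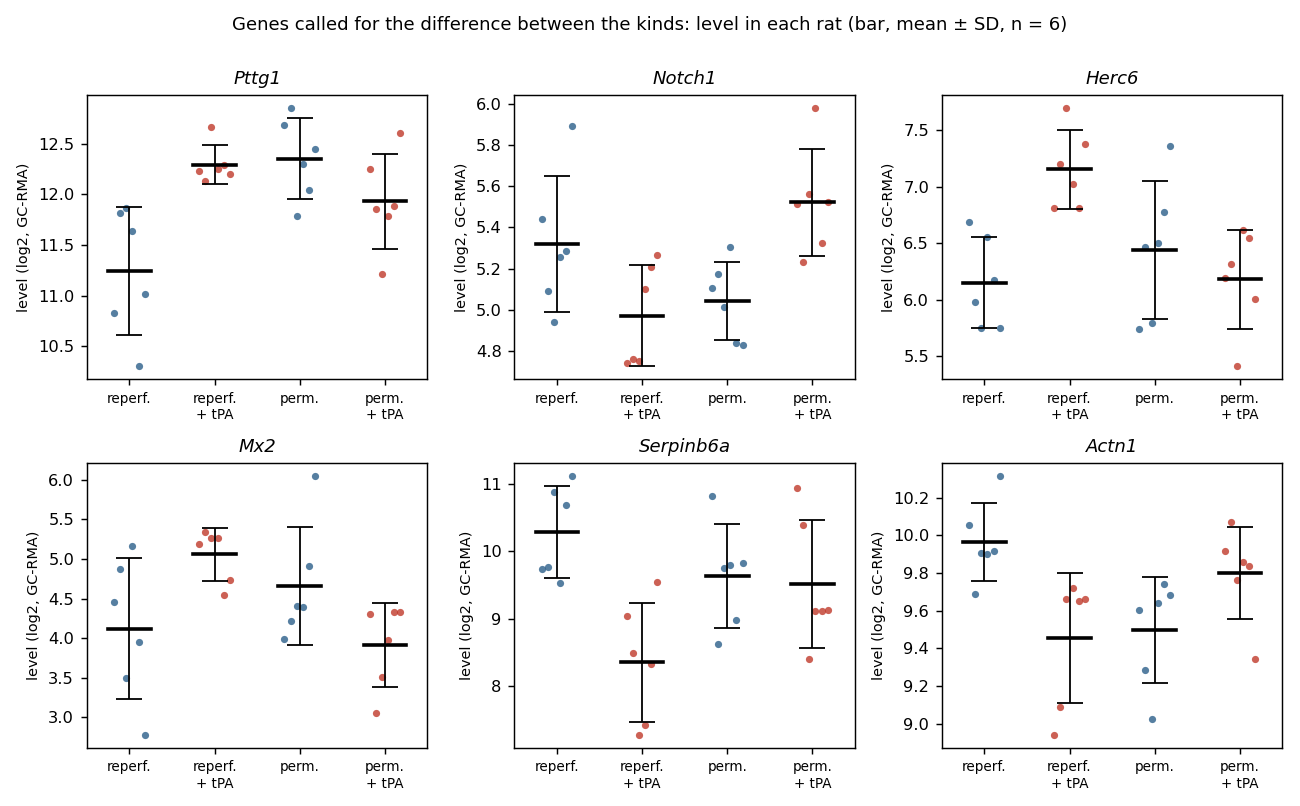
Level (log2, GC-RMA) of 6 genes called for the difference between the kinds, in each of the 24 rats (red, tPA, and blue, no tPA, with the mean ± SD of 6 rats). Pttg1 and Herc6 separate the arms in reperfused-MCAO, from 10.30 to 11.86 against 12.13 to 12.67 for Pttg1, and overlap in permanent-MCAO. The share of all probe sets that separate in a single kind was not counted.

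Rats given tPA without MCAO, set against rats under anesthesia alone, are other animals and served as a background for tPA itself. The sources used here do not say whether the former were anesthetized at injection. There 7317 probe sets were called (23.6%), and 3884 passed adjustment. That group also had the lowest hybridization control signal, 11.16 ± 0.75 against 12.22 ± 0.22 in anesthesia (SD, n = 6 each), whose part in these calls was not tested. Of the 810 probe sets called after MCAO, 299 were called here too, 50 in the same and 249 in the opposite direction, and 29.6% of the 810 had the same sign, where 36.4% of all probe sets had. Of the 18 neutrophil genes 15 were positive here (median 0.24) and 5 called, all higher. The 23.6% of all probe sets counts both directions, and the share of all genes called higher here was not counted. In the same comparison 20 of 24 T cell genes were called higher (median 0.72) and 23 of 30 erythroid genes lower (median -1.29). Slpi differed by 0.61 without MCAO, not called, against -0.91 after MCAO. Called in both were Fetub, which differed by 1.27 against -1.26, Slc35c2 by 1.36 against -0.89, Glul by -0.50 against 0.32 and Lpal2 by -2.28 against 1.60.

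Across all groups these genes did not share one order. Slpi had medians of 11.47 in naive rats, 11.11 in anesthesia and 11.83 with tPA alone, beside 11.75 and 11.42 in treated and 12.83 and 12.30 in untreated MCAO rats. Tlr2 stood at 8.65 in naive rats, 8.60 in anesthesia and 8.63 with tPA alone, below the untreated MCAO medians of 9.71 and 9.41 and near the treated ones of 8.91 and 8.77. Glul stood at 12.36 in naive rats and 12.46 in anesthesia, above the untreated MCAO medians of 11.98 and 12.11 and near the treated ones of 12.30 and 12.38. With tPA alone Glul stood at 11.95, near the untreated MCAO rats. These medians are a description, and no test across the 7 groups was made.

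**Figure D5:**
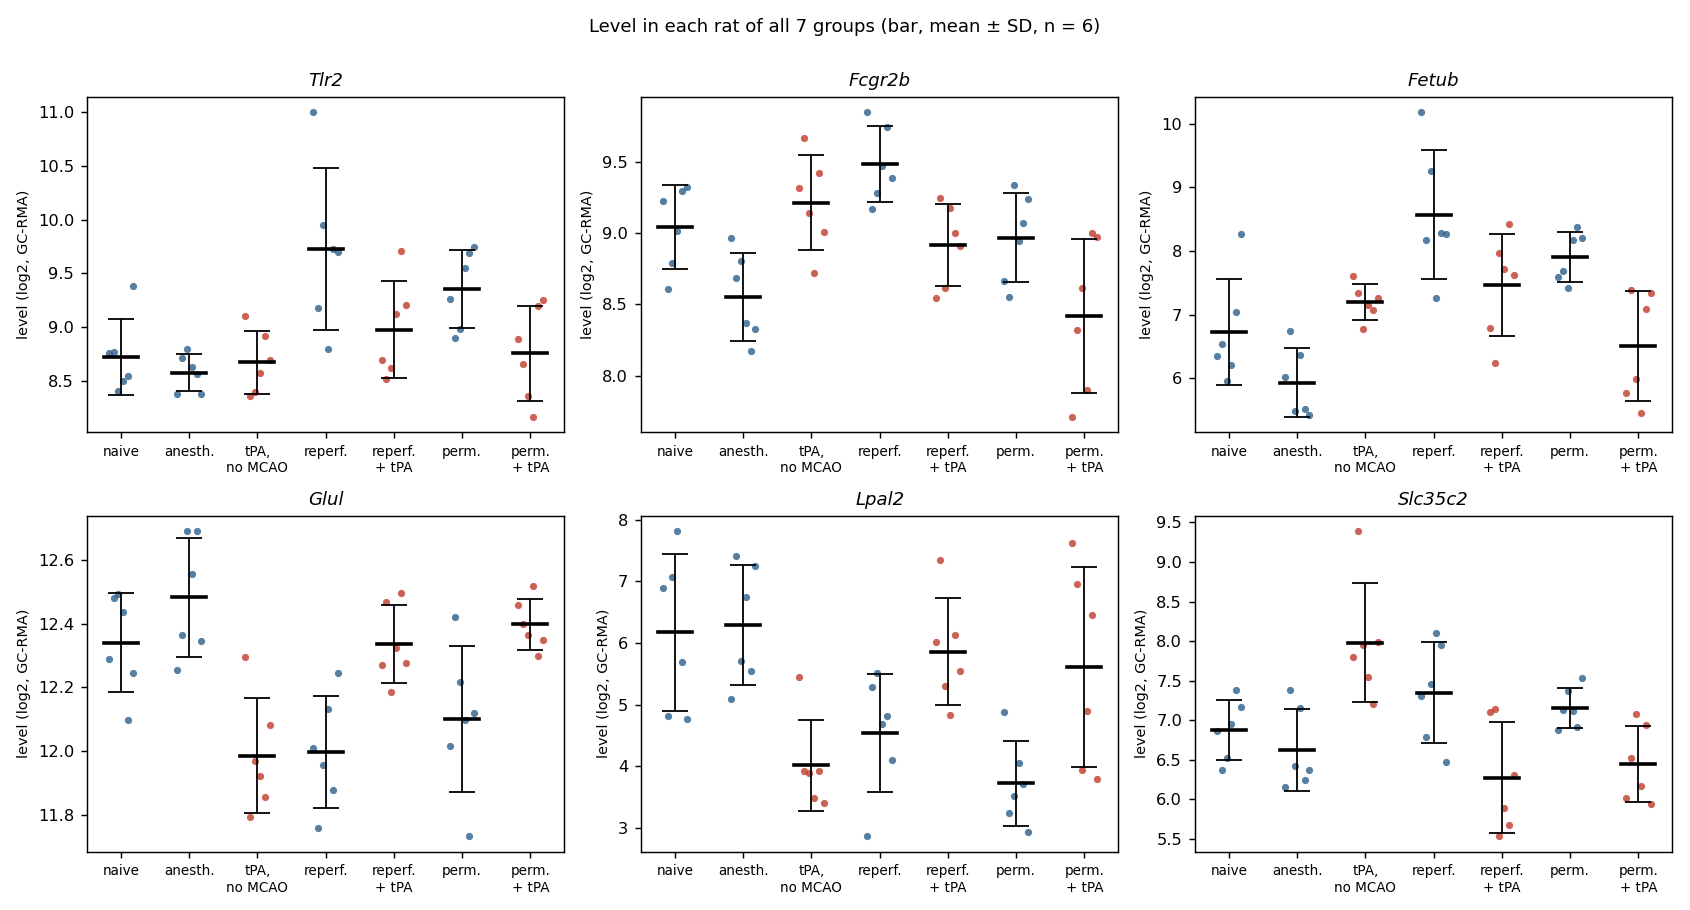
Level (log2, GC-RMA) of 6 genes in each rat of all 7 groups (red, tPA, and blue, no tPA, with the mean ± SD of 6 rats). Tlr2 medians rise from 8.60 in anesthesia to 9.71 in untreated reperfused-MCAO and stand at 8.91 with tPA, and Glul and Lpal2 show the reverse order over these 3 groups.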

How the data were processed

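Whole blood RNA was hybridized to Affymetrix rat whole-genome arrays, 1 per rat, in 42 rats. The deposited values are log2 signals that the authors made with GC-RMA, which corrects background by probe sequence and scales arrays to each other. Such arrays carry no read depth, so the number of rats limits the precision. Groups were taken from the labels, and 57 control probe sets were set aside. The 12 treated and 12 untreated MCAO rats were fitted in limma 3.58.1 (R 4.3.3) with the kind of MCAO as a block over 31042 probe sets, with Benjamini-Hochberg adjustment over all of them. The difference between kinds and the differences within kinds came from a fit of the 4 group means. Calls needed p of at most 0.05 and a fold of at least 1.2. Gene symbols came from the platform annotation, and 20826 probe sets had 1 symbol. For 27 gene lists and for counts of genes the probe set with the highest mean over 42 arrays stood for each of 14217 genes, and lists are described by counts and medians without a test. Named genes came from the 8 largest differences and the 6 smallest p in each direction among called probe sets with 1 symbol and a mean of at least log2 4, up to 10 without overlap in both kinds (0 were found), up to 4 of smallest p in each list, the genes the study discusses, and up to 6 of smallest p for the difference between kinds. Other genes, such as the remaining called neutrophil genes and the 5 interferon genes, were picked after their values were seen. Members and lists were chosen with earlier results of these data known. Nothing in the labels says whether rats were separate litters or batches, so p-values measure the spread between these rats. The exact tests ran over 853776 divisions of the rats within kinds (Python 3.11.15). The exact test for the difference between kinds was added after seeing the data. It shuffles tPA labels within kinds, so its null is no tPA effect in either kind, not equal effects in both. The limma fits of the pooled effect and of the difference between kinds were tested on simulated data, with independent noise in each probe set. The exact tests and the list counts were not part of that check. Alternatives were scaling, weights, filters, blocks, thresholds and leaving out each rat, and leaving out 2 arrays together was chosen after seeing the data.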

Additional observations from a re-analysis of the deposited data

Results flagged for a closer look

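For 20 of 312 combinations of a named gene and a group, 1 rat lay far from the other 5, where 1 in 20 would give 15.6. Among treated permanent-MCAO rats these were rat 4 for S100a8 (12.36, lowest), Cxcr2 (5.63, lowest) and Herc2 (7.96, highest), and rat 1 for Egln1 (5.79, lowest) and Per1 (3.11, lowest). Among treated reperfused-MCAO rats the highest values lay far out for Lgals3 (10.58), Serpinf2 (4.34), Setd5 (7.52), Pkia (8.64), Ggt1 (5.64) and Pttg1 (12.67), and the lowest for Fbln1 (3.40), Lmo7 (5.00) and Ifi27 (8.01). Untreated reperfused-MCAO rat 1 was far above the others for Tlr1 (9.65) and Fcgr1a (12.42), and rat 3 far below for Ddx24 (5.77). Among untreated permanent-MCAO rats the highest values lay far out for Cpox (8.73) and Fbln1 (8.97) and the lowest for Bcl11b (5.53). All are log2 levels.

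The effect of tPA was called different between the kinds of MCAO, at an unadjusted p in limma, for 18 of 78 genes examined. Over all probe sets 782 had p at most 0.05, fewer than the 1552 that would be reached with no difference, and 0 passed adjustment. As permanent-MCAO minus reperfused-MCAO on the log2 scale, the difference was positive for Serpinb6a (1.81), Irs2 (0.96), Notch1 (0.83), Actn1 (0.81), Letm1 (0.59), Xdh (0.55), Itgb2 (0.49) and Col17a1 (0.42). It was negative for Ifi27 (-3.36), Mx2 (-1.68), Pttg1 (-1.47), Herc6 (-1.26), Usp18 (-1.25), Rtp4 (-1.24), Jag1 (-1.21), Ddx24 (-0.77), Aif1 (-0.65) and Cuedc2 (-0.63). Most of these genes were chosen by that test, so their share is no measure of how common such differences are.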

How the results depend on the processing

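In no alternative did a called gene change direction, which the call by p and fold made unlikely in advance. Of 58 called genes 39 stayed called whichever of the 24 rats was left out, and 32 under every other alternative apart from the stricter thresholds. With 1 rat left out, the probe sets called ran from 636 to 1047, those higher from 189 to 410, those lower from 440 to 721, the neutrophil genes lower from 4 to 10, and those for the difference between kinds from 489 to 1074, with 0 passing adjustment each time. A fold of 1.5 left 136 called, 26 higher and 110 lower, and 5 neutrophil genes. A p of 0.01 left 186, 59 higher and 127 lower, and 1 neutrophil gene. Fewer calls follow from those thresholds themselves. Without the 2 arrays that stood apart 4 neutrophil genes were called. For the difference between kinds 984 were called without those arrays, 1408 with array weights, 1240 with the hybridization control as covariate and 334 without dim probe sets, and the cause was not tested. Treated and untreated rats of 1 number and kind had correlated deviations for some numbers but not for all (-0.30 to 0.37), so the number was not taken as a pairing. A replicate block by number called 797, by pair within kind 897, and 730 for the difference between kinds. An ordinary analysis of variance of the 24 MCAO arrays, with tPA and kind of MCAO as terms, called 755. Array weights called 1164, and a fit of all 42 arrays by group 1023.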
